A study of Mus musculus with 18 samples.

Results

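The genes described here encode the receptors through which serotonin, dopamine, noradrenaline, acetylcholine (its muscarinic receptors) and histamine act on cells. They were taken as every row of the gene count table whose symbol begins with Htr, Drd, Adra, Adrb, Chrm or Hrh followed by a digit. That rule found 37 of the 24015 genes in the table: 14 serotonin receptors, 5 dopamine receptors, 9 adrenergic receptors (6 alpha and 3 beta), 5 muscarinic receptors and 4 histamine receptors. The dopamine D1 receptor gene is listed under its older symbol, Drd1a. Of these 37 genes, 31 had enough counts to be tested in at least 1 comparison and 29 were tested in all 3.

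Most of these receptors are coupled to G proteins. Gs-coupled receptors raise cyclic AMP through adenylyl cyclase, Gi/o-coupled receptors lower it and can open potassium channels, and Gq/11-coupled receptors act through phospholipase C and intracellular calcium. The serotonin receptor genes Htr3a and Htr3b are the exception, since they encode subunits of a cation channel. The axons that release these transmitters reach the cortex mostly from nuclei of the brainstem, the hypothalamus and the basal forebrain, and the receptor genes are known for expression that differs between cortical layers and neuron types.

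RNA was sequenced from mouse cortex dissected at postnatal day 5, from cells sorted for the red fluorescent protein tdTomato, about 25000 cells per sample. The groups, of 4 libraries each, were wild type (WT) layer 6, layer 6 of a genotype labelled "Tbr1 Layer 6 Null", and WT layer 5. Tbr1 encodes a transcription factor with a T-box domain that is needed for the identity of layer 6 neurons. The series' design text calls the null constitutive while the genotype label names the layer. The sources used here do not name the driver of tdTomato, the strain of these groups or the number of animals behind each library. All layer 6 libraries belonged to sequencing batch A, layer 5 replicates 1 and 2 to batch B and layer 5 replicates 3 and 4 to batch C.

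WT layer 6 libraries totalled 32982957 to 54899002 counts. Those of the null totalled 41091165 to 47540669, and those of layer 5 totalled 27465597 to 39703820. Levels are given as CPM, counts relative to the library total, scaled by the trimmed mean of M values (TMM) over all 12 libraries. Tbr1 itself stood at 170 to 183 CPM in WT layer 6. It was at 92.4 to 98.2 CPM in the null and at 39.7 to 44.9 in layer 5. The null libraries thus held less Tbr1 RNA than WT layer 6 but were not at 0, and the labels do not say which part of the gene is deleted. Summed markers of layer 6 corticothalamic neurons, Tbr1 included, came to 810 to 850 CPM in WT layer 6. They came to 622 to 668 CPM in the null and to 356 to 378 in layer 5. Of these 10 layer 6 markers, 6 were called lower and 2 higher in the null than in WT layer 6. Summed markers of layer 5 subcerebral neurons came to 424 to 435 CPM in WT layer 5. They were higher in WT layer 6 (733 to 820 CPM) and null layer 6 (887 to 997 CPM). Of the 10 markers 7 were called lower and 2 higher in WT layer 5 than in WT layer 6. The sums did not follow the layer 5 label, but both lists hold Fezf2, and Bcl11b was the largest term of the layer 5 sum. Bcl11b had means of 238 CPM in WT layer 6 and 102 in layer 5. Pcp4 went with the label, at means of 20.6 CPM in WT layer 6 and 34.5 in layer 5. The layer 5 libraries also held more RNA of glia, as given below. "Layer 5" below means the libraries so labelled. In both layer 6 groups, replicates 1 and 2, and replicates 3 and 4, resembled each other more than the other libraries of their group, and the descriptions give each such pair a shared code. In layer 5 the closest libraries were replicates 1 and 3 and replicates 2 and 4, across batches B and C, and these pairs were taken from the counts alone. In WT layer 6 the female-specific Xist RNA was at 0.462 and 0.450 CPM in replicates 1 and 2 and at 292 and 289 in replicates 3 and 4. Xist was at 293, 302, 264 and 265 CPM in null layer 6 and at 40.2, 39.0, 40.6 and 40.3 in layer 5. The groups were thus not matched for Xist in any comparison, and the part of sex in the differences was not tested. If the pairs share a source, p-values over 4 libraries are smaller than the number of sources warrants, so the calls lost when paired libraries were summed are named. No p-value here covers more than the spread among these libraries.

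The comparison of null with WT layer 6 asks how these genes differ when Tbr1 is lost from layer 6. The D1 and D2 dopamine receptor genes moved in opposite directions, with Drd1a falling and Drd2 rising. Htr1f, Adra1b, Hrh1, Htr2a and Adra2c also fell, and Htr4, Htr7, Adrb1 and Adra1d also rose. In all, 5 of 30 tested receptor genes rose, 6 fell and 19 were not called, where a call is a Benjamini-Hochberg adjusted p under 0.05 by edgeR's quasi-likelihood test. Over all 14588 genes tested, 14.2% were called, 7.31% higher and 6.86% lower. The median absolute log2 fold change was 0.48 over the 30 receptor genes and 0.087 over all genes. Of the receptor genes 23.3%, against 1.34% of all genes, were called and differed by more than 2-fold. The 2 sets were not matched for level, and fold changes of genes with few counts are less precise. The median signed log2 fold change was -0.042 for the receptor genes and 0.00034 for all genes. Levels did not overlap between the 2 groups for 12 receptor genes, the 11 called and Htr1b, and for 19.8% of all genes. With paired libraries summed, the calls of Drd1a, Drd2, Htr1f and Htr4 held and the other 7 were lost. In sorted bulk RNA, fewer cells of a type and less RNA per cell cannot be told apart.

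Among the dopamine receptors, Drd1a encodes the Gs-coupled D1 receptor. Its level was 16.1, 15.0, 21.2 and 17.9 CPM in WT layer 6, 2.19, 2.11, 2.11 and 1.84 in null layer 6, and 13.0, 11.9, 13.8 and 12.5 in WT layer 5. All 4 null libraries lay far below every library of the other 2 groups, and they differed little among themselves. The log2 fold change of null against WT layer 6 was -3.09 ± 0.12 (SE, adjusted p = 8.53e-09), an 8.52-fold lower level. Drd2 encodes the Gi/o-coupled D2 receptor. It was at 0.189, 0.630, 0.374 and 0.292 CPM in WT layer 6, 1.95, 2.48, 2.53 and 1.46 in null layer 6, and 1.33, 1.70, 1.54 and 1.95 in WT layer 5. The WT layer 6 values rest on 9, 21, 17 and 16 counts, so they are the least precise of these. The null libraries overlapped the layer 5 libraries and stood above all WT layer 6 libraries, by a log2 fold change of 2.55 ± 0.32 (adjusted p = 0.000119), or 5.87-fold.

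The counts of Drd1a for each count of Drd2 were 85.3, 23.8, 56.7 and 61.3 in WT layer 6, 1.12, 0.848, 0.835 and 1.26 in null layer 6, and 9.75, 6.97, 8.96 and 6.41 in WT layer 5. The groups did not overlap in this ratio, which is not corrected for transcript length and is comparable only between libraries. Both genes are also markers of the projection neurons of the striatum. The summed striatal markers, Drd2 included, came to 355 to 368 CPM in WT layer 6, 377 to 395 in the null and 390 to 412 in layer 5. Of the 10 markers, which leave out Drd1a, 4 rose, Drd2 among them, and 2 fell in the null. Foxp1 and Pde10a, the highest of them, had means of 148 and 160 CPM in WT and 190 and 141 in null layer 6. Of the markers found with Drd2 in the striatum, Penk was 2.25 to 2.90 CPM in WT and 3.92 to 5.37 in null layer 6. Adora2a was 3.44 to 3.70 and 2.65 to 3.65. Tac1 and Pdyn, also in the sum, had means of 0.743 and 0.420 CPM in WT and 0.502 and 0.417 in null layer 6. The part of such cells in the result was not tested. Drd4, also Gi/o-coupled, was at 0.200 to 0.352 CPM in WT layer 6 and 0.263 to 0.687 in null layer 6 and was not called (adjusted p = 0.230). Drd5, the other Gs-coupled dopamine receptor gene, had too few counts for this test.

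The sequences just upstream of Drd1 (the current symbol of Drd1a) and Drd2 are shown because these 2 genes had the largest called changes among receptor genes at 1 CPM or more. They are the 250 bases before each annotated gene start, from RefSeq on GRCm38.p6, on the gene's strand from 5′ to 3′. Capitals mark the GC box GGGCGG, searched on both strands (CCGCCC where it lies on the other strand). Drd1 has 2 annotated starts, with windows at chr13:54055659-54055908 and chr13:54054781-54055030 on the minus strand. Drd2 has 1, with its window at chr9:49340153-49340402 on the plus strand.
Drd1, upstream start: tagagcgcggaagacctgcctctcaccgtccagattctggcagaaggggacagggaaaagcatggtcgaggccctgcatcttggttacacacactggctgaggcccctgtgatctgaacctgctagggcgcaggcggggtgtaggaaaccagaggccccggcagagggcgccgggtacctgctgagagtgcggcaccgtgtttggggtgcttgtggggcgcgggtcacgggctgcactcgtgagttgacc
Drd1, downstream start: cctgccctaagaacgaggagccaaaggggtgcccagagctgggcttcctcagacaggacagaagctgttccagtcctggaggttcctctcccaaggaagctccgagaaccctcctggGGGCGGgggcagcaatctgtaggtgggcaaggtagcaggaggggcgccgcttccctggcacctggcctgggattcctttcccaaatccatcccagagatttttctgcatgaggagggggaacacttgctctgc
Drd2: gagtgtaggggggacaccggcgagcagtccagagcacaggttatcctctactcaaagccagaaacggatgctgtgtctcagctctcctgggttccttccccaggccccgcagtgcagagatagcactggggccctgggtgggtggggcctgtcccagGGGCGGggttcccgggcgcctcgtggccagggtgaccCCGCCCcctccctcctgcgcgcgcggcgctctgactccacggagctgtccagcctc
The GC box occurred 0 times in the window of the upstream Drd1 start, once in that of the downstream start and 2 times in that of Drd2, on opposite strands. Over all 32851 windows of this length 32.7% held it, and among the 36 windows of the 28 receptor genes with an entry, 20 did. The T-box half-site AGGTGTGA was in 0 of the 36 windows and in 1.12% of all windows. Its 6-base core GGTGTG, which lies inside it, was in the windows of Adra1b, Chrm4, Htr1a, Htr1b and Htr6 and in 16.3% of all windows. No window of Drd1 or Drd2 held these letters. Binding of the factor was not analysed here at these genes.

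Of the 12 serotonin receptor genes tested, 2 rose, 2 fell and 8 were not called. Htr1f, a Gi/o-coupled receptor gene, was at 1.41, 1.98, 1.81 and 1.46 CPM in WT layer 6 and at 0.827, 0.421, 0.441 and 0.334 in null layer 6. The highest null library lay below the lowest WT library, and the log2 fold change was -1.69 ± 0.28 (adjusted p = 0.00108). Htr4, a Gs-coupled receptor gene, was at 1.72, 1.44, 1.39 and 1.53 CPM in WT layer 6, 4.52, 3.08, 3.63 and 4.20 in null layer 6 and 3.18, 3.75, 4.10 and 3.76 in WT layer 5. It rose by a log2 fold change of 1.34 ± 0.16 (adjusted p = 7.64e-05), and the null libraries lay around the layer 5 level.

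Htr7, the other Gs-coupled serotonin receptor gene that rose, was at 4.03, 2.52, 2.73 and 2.59 CPM in WT layer 6 and 6.03, 4.48, 6.28 and 4.87 in null layer 6. Replicate 1 of WT layer 6 stood above its group but below every null library. The log2 fold change was 0.86 ± 0.17 (adjusted p = 0.00378). Htr2a, the Gq/11-coupled receptor through which classical psychedelics act, was at 6.38, 6.75, 6.03 and 6.58 CPM in WT layer 6 and 5.01, 4.66, 3.14 and 2.91 in null layer 6. Within the null group, replicates 3 and 4 were lower than replicates 1 and 2, and all 4 were below WT. Htr2a fell by 0.71 ± 0.16 on the log2 scale (adjusted p = 0.00931), and without WT replicates 1 and 2 the value was -0.68 with an adjusted p of 0.0595. It was -1.09 without null replicates 1 and 2 and -0.41 without null replicates 3 and 4, called in both cases. Htr1b, a Gi/o-coupled receptor gene found on axon terminals, was at 0.616 to 0.780 CPM in WT layer 6 and 0.212 to 0.540 in null layer 6. Its groups did not overlap, yet it was not called (log2 fold change -0.99 ± 0.32, adjusted p = 0.0568). The fit over all 12 libraries called it (adjusted p = 0.0379).

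The remaining serotonin receptor genes were not called between null and WT layer 6. Htr1a, the main inhibitory serotonin receptor of cortical neurons, was at 10.4 ± 0.957 CPM (SD, n = 4) in WT and 9.76 ± 0.727 in null layer 6. Htr5a was at 6.90 ± 0.913 and 8.29 ± 0.772 CPM. Htr1d, Htr5b and Htr6 were under 1 CPM in every layer 6 library.

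Htr2c and Htr3a differed more between library pairs than between genotypes. Htr2c, a Gq/11-coupled receptor gene that is abundant in the epithelium of the choroid plexus, was at 6.27, 6.87, 6.32 and 6.65 CPM in WT layer 6. In null layer 6 it was at 9.23 and 9.34 CPM in replicates 1 and 2 and at 3.14 and 2.79 in replicates 3 and 4. The WT libraries were even, while the null pairs lay on either side of them, and the log2 fold change over all libraries was -0.08 ± 0.32 (adjusted p = 0.901). Without null replicates 3 and 4 it was 0.51 (adjusted p = 0.00462), and without null replicates 1 and 2 it was -1.13 (adjusted p = 0.000108), so the pair left out set the direction. The choroid plexus transcript Ttr was at 906 and 928 CPM in null replicates 1 and 2, 7.50 and 7.26 in null replicates 3 and 4, 195 and 199 in WT replicates 1 and 2, and 570 and 569 in WT replicates 3 and 4. The sum of 7 choroid plexus markers, Ttr included, followed the same libraries, at 957 and 981 CPM in null replicates 1 and 2 and at 17.0 and 16.7 in null replicates 3 and 4. WT layer 6 had 218 and 217 CPM in replicates 1 and 2 and 605 and 601 in replicates 3 and 4, while its Htr2c was even. The part of choroid plexus RNA in the Htr2c values was not tested.

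Htr3a, a channel subunit known in the cortex from interneurons of the caudal ganglionic eminence, showed the split in the WT group. It was at 6.86 and 7.68 CPM in WT replicates 1 and 2, 14.5 and 14.9 in WT replicates 3 and 4, and 14.3, 14.6, 13.2 and 12.6 in null layer 6. Among the layer 6 libraries, only WT replicates 1 and 2 were low. They also had Xist near 0 and less Ttr than WT replicates 3 and 4, and the part of either difference in Htr3a was not tested. Over all libraries the log2 fold change was 0.30 ± 0.21 (adjusted p = 0.388), and without WT replicates 3 and 4 it was 0.91 (adjusted p = 9.40e-05). Without WT replicates 1 and 2 it was -0.10 (adjusted p = 0.493). Summed markers of caudal ganglionic interneurons were 100.01 and 99.0 CPM in WT replicates 1 and 2 and 82.9 and 83.1 in WT replicates 3 and 4. The sum was 70.8 to 82.5 CPM in null layer 6. The summed genes did not all differ alike between the WT pairs. Nr2f2 was at 41.57 and 40.24 CPM in WT replicates 1 and 2 and at 28.64 and 30.55 in replicates 3 and 4. Prox1 and Adarb2 were also higher in WT replicates 1 and 2, while Vip overlapped. Sp8 was lower there, at 9.904 and 8.881 CPM against 11.03 and 10.86. The part of these interneurons in the Htr3a values was not tested.

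**Figure D1:**
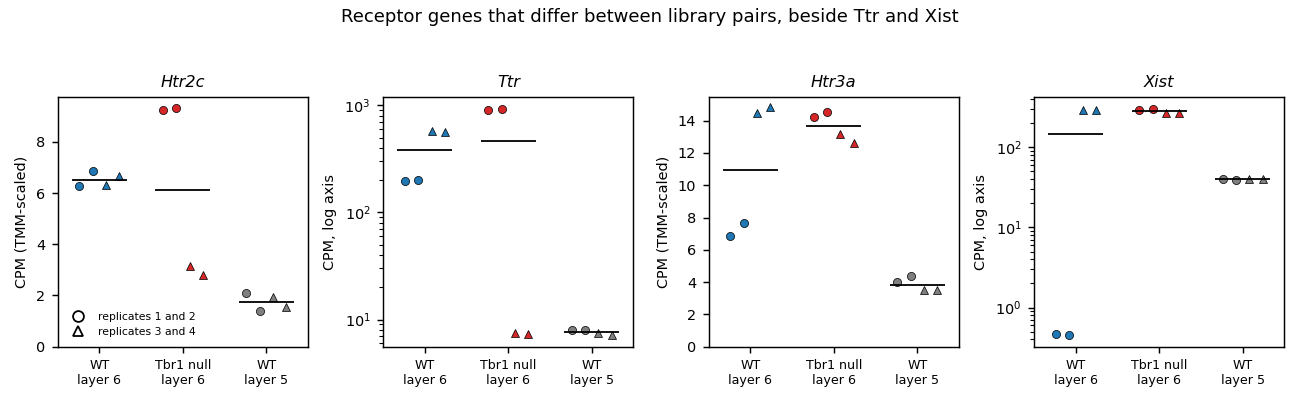
Level in CPM of the receptor genes that differed between pairs of libraries, beside Ttr and Xist (log axes where labelled), for WT layer 6, null layer 6 and WT layer 5. Circles are replicates 1 and 2 and triangles replicates 3 and 4: Htr2c splits the null group (9.23 and 9.34 against 3.14 and 2.79) and Htr3a splits the WT layer 6 group (6.86 and 7.68 against 14.5 and 14.9).

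Of the 7 adrenergic receptor genes tested, 2 rose, 2 fell and 3 were not called. Adrb1, the Gs-coupled beta-1 receptor, was at 6.11, 6.27, 6.03 and 5.85 CPM in WT layer 6 and 9.29, 10.96, 9.0 and 7.79 in null layer 6, with 6.57, 5.66, 7.11 and 5.17 in WT layer 5. The null group was above all 8 WT libraries, and the log2 fold change against WT layer 6 was 0.61 ± 0.10 (adjusted p = 0.00119). Adra2c, a Gi/o-coupled alpha-2 receptor gene, was at 11.8, 10.8, 10.7 and 8.82 CPM in WT layer 6 and 6.90, 6.41, 7.60 and 7.93 in null layer 6. It fell by 0.55 ± 0.10 on the log2 scale (adjusted p = 0.00281). Adra2a, its close relative, was at 11.6 to 14.4 CPM in WT and 13.8 to 15.6 in null layer 6 and was not called (adjusted p = 0.194).

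The 3 alpha-1 receptor genes, all Gq/11-coupled, behaved differently from each other in the null. Adra1b was at 1.30, 2.40, 1.74 and 1.31 CPM in WT and 0.764, 0.377, 0.760 and 0.812 in null layer 6, and it fell by 1.30 ± 0.28 on the log2 scale (adjusted p = 0.00808). Adra1d was at 0.441, 0.270, 0.440 and 0.255 CPM in WT and 0.785, 0.710, 1.28 and 0.716 in null layer 6, and it rose by 1.29 ± 0.31 (adjusted p = 0.0135). Adra1a was at 1.30 to 1.95 and 0.827 to 1.98 CPM and was not called (adjusted p = 0.781). The calls of Adra1b and Adra1d were lost with paired libraries summed and with the library pair as a random block, and that of Adra1d also without either WT pair or without null replicates 3 and 4.

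None of the 5 muscarinic receptor genes was called between null and WT layer 6 by edgeR's quasi-likelihood test on these 2 groups. DESeq2 called Chrm4 (adjusted p = 0.0320), and the edgeR fit over all 12 libraries called Chrm3 (adjusted p = 0.0429) and Chrm4 (adjusted p = 0.0220). Without adjustment, 3 of the 5 had p under 0.05 (Chrm1, Chrm3 and Chrm4). Chrm1, the Gq/11-coupled M1 receptor of pyramidal neurons, was at 18.6 ± 3.17 CPM (SD, n = 4) in WT and 21.96 ± 1.64 in null layer 6. Chrm4, a Gi/o-coupled receptor gene, was at 2.29, 2.73, 1.87 and 2.42 CPM in WT and 2.78, 2.71, 4.02 and 4.01 in null layer 6, with a log2 fold change of 0.54 ± 0.18 (adjusted p = 0.0662). Chrm3 was at 6.15 to 7.47 and 7.19 to 9.83 CPM (adjusted p = 0.0840). Chrm2 and Chrm5 had log2 fold changes of -0.02 ± 0.15 and -0.07 ± 0.17.

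Among the histamine receptors, Hrh1, a Gq/11-coupled receptor gene, was at 0.734, 0.690, 0.330 and 0.273 CPM in WT layer 6 and at 0.106, 0.111, 0.172 and 0.0955 in null layer 6. These are 15 to 35 counts per WT library and 4 to 7 per null library. Hrh1 fell by 2.02 ± 0.45 on the log2 scale (adjusted p = 0.00895). Without WT replicates 1 and 2, the higher pair, the value was -1.30 (adjusted p = 0.143), and without null replicates 1 and 2 it was -1.87 (adjusted p = 0.0809). With the library pair as a random block it was -1.83 (adjusted p = 0.0584). Hrh2, Gs-coupled, and Hrh3, the Gi/o-coupled receptor on histamine and other axon terminals, were not called (adjusted p = 0.364 and 0.392).

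**Figure D2:**
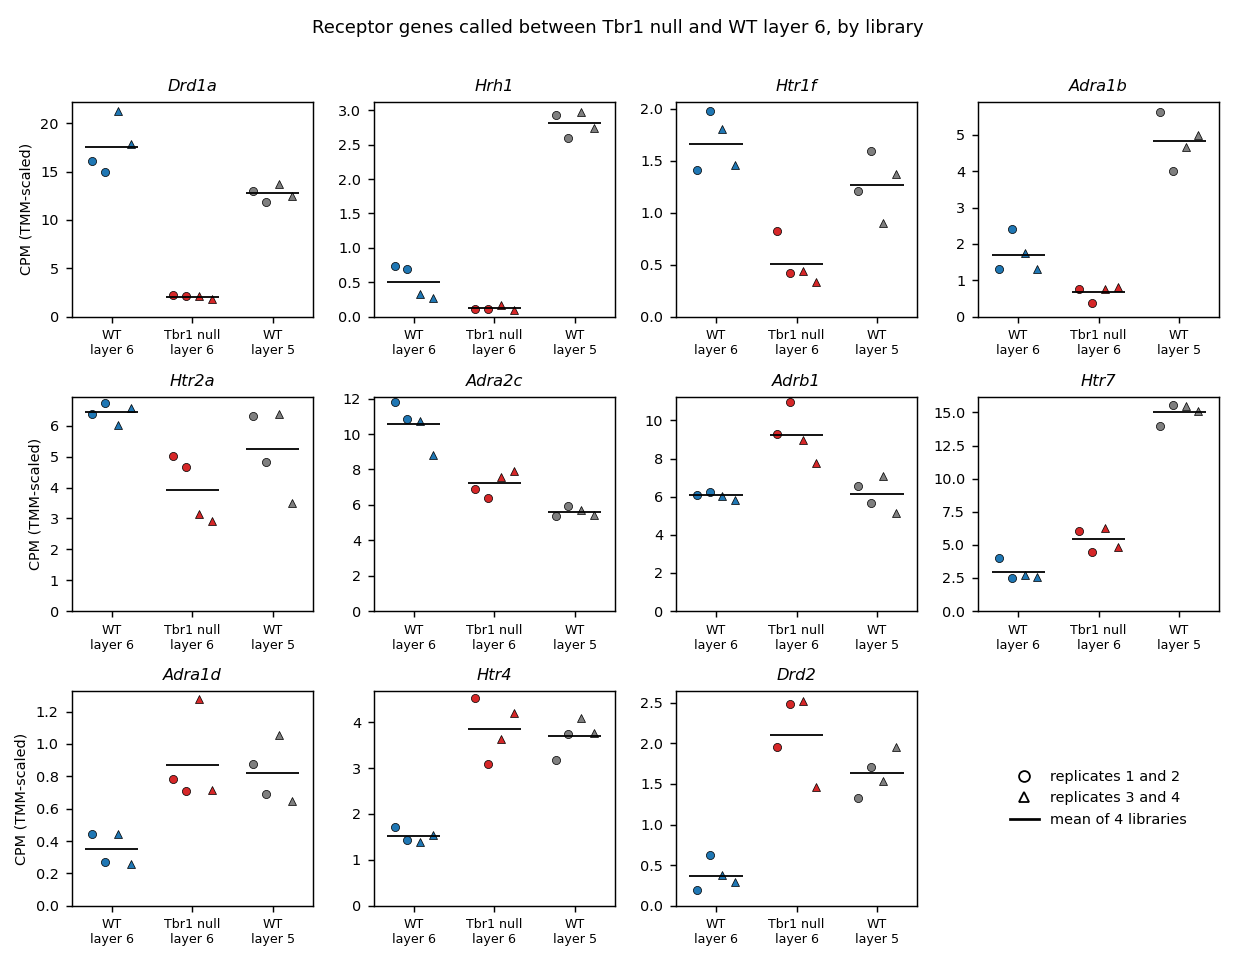
Level in CPM of the receptor genes called between null and WT layer 6, by library, in WT layer 6, null layer 6 and WT layer 5, with 1 panel per gene. Circles are replicates 1 and 2, triangles replicates 3 and 4 and bars the mean of 4 libraries; in each panel the null and WT layer 6 libraries do not overlap, as for Drd1a (1.84 to 2.19 against 15.0 to 21.2 CPM).

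By G protein, 3 of 7 tested Gs-coupled receptor genes rose (Adrb1, Htr4 and Htr7) and 1 fell (Drd1a). Of the 9 Gq/11-coupled genes, 1 rose (Adra1d) and 3 fell (Adra1b, Hrh1 and Htr2a). Of the 12 Gi/o-coupled genes, 1 rose (Drd2) and 2 fell (Adra2c and Htr1f). These counts are small and the classes were assigned after the values were seen. Subplate markers summed to 257 to 302 CPM in WT and 115 to 199 in null layer 6, and 4 of 7 tested fell. Layer 5 subcerebral markers were higher in the null, as given above, with 5 of 10 called higher and 1 lower. Fezf2, which is in the layer 5 and the layer 6 list, had means of 66.7 CPM in WT and 114 in null layer 6. Astrocyte markers summed to 843 to 976 CPM in WT and 1022 to 1091 in null layer 6 (4 of 10 higher, 1 lower), and interneuron markers to 458 to 481 and 428 to 439 (1 of 12 higher, 5 lower). The part of these cells in the receptor changes was not tested.

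The comparison of WT layer 5 with WT layer 6 asks how receptor genes differ between sorted populations of the 2 layers. Most of them differed: 19 of 30 tested were higher in layer 5, 7 were lower and 4 were not called. The largest increases among genes at 1 CPM or more were in Hrh1, Chrm4, Htr7, Drd2 and Adra1a, and the largest decreases in Htr2c, Htr3a and Chrm5. Over all 14927 genes tested 85.5% were called, 42.2% higher and 43.4% lower, so a call by itself was the rule here. The receptor genes had a median log2 fold change of 0.79 against -0.010 for all genes. Of them 63.3%, against 27.6% of all genes, were called and differed by more than 2-fold, again without matching for level. Levels did not overlap for 24 receptor genes and for 81.1% of all genes.

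Layer and sequencing batch cannot be told apart in this comparison. The sorted layer 5 libraries also held more RNA of glia and vessels. Summed astrocyte markers were 5184 to 5216 CPM in layer 5 and 843 to 976 in WT layer 6, oligodendrocyte lineage markers 1102 to 1111 and 263 to 275, microglia markers 260 to 268 and 80.2 to 91.3, and endothelial and mural markers 570 to 592 and 259 to 272. All 10 astrocyte, 10 oligodendrocyte, 9 microglia and 9 endothelial markers were called higher in layer 5. Their part in the receptor differences was not tested.

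All 3 tested histamine receptor genes were higher in layer 5. Hrh1 was at 2.93, 2.60, 2.98 and 2.75 CPM there, with a log2 fold change of 2.54 ± 0.26 (adjusted p = 3.58e-07). Hrh2 was at 1.08 to 1.59 CPM in layer 5 and 0.396 to 0.620 in WT layer 6, and Hrh3 at 7.55 to 8.95 and 4.17 to 4.83. For each of the 3 genes the lowest layer 5 library was above the highest WT layer 6 library. Over all genes tested between these groups, levels did not overlap for 81.1%.

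Of the muscarinic receptor genes, 4 were higher and 1 was lower. Chrm4 was at 13.7, 11.5, 12.3 and 10.6 CPM in layer 5, a log2 fold change of 2.41 ± 0.12 from WT layer 6 (adjusted p = 6.72e-11). Chrm1 was at 52.5 ± 2.72 CPM in layer 5 (SD, n = 4), with a log2 fold change of 1.53 ± 0.09. Chrm2 (4.74 to 5.34 against 2.95 to 4.58 CPM) and Chrm3 (9.06 to 10.6 against 6.15 to 7.47 CPM) differed less. Chrm5, the Gq/11-coupled M5 receptor gene, went the other way, at 0.397 to 0.992 CPM in layer 5 and 1.71 to 1.97 in WT layer 6 (log2 fold change -1.40 ± 0.24, adjusted p = 7.18e-05).

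Among the serotonin receptor genes, 6 were higher, 3 lower and 3 not called. Htr7 was at 13.9, 15.5, 15.5 and 15.1 CPM in layer 5 and had the largest increase of them, 2.36 ± 0.12 on the log2 scale (adjusted p = 1.32e-10). Htr4 (1.30 ± 0.14) and Htr1b (1.32 ± 0.24) were also higher. Htr1a was at 4.51, 4.88, 5.15 and 5.17 CPM in layer 5, against 9.49 to 11.7 in WT layer 6, and fell by 1.06 ± 0.09 on the log2 scale. Htr2c was at 1.39 to 2.11 CPM in layer 5 (log2 fold change -1.86 ± 0.13), where the choroid plexus markers summed to 15.6 to 16.8 CPM. Htr3a was at 3.50 to 4.36 CPM, below even the low pair of WT layer 6. Htr1d, under 1 CPM in every group, was higher in layer 5, a call lost with the layer 5 libraries of batch B alone and without WT layer 6 replicates 1 and 2. Htr5a (0.31 ± 0.11) and Htr5b (0.71 ± 0.27) were called higher, but the groups of both overlapped. Both calls were lost with paired libraries summed, with the pair as a random block and with batch B alone, and that of Htr5b also with the replicate number as a block. Htr6 was not called. Htr1f (-0.35 ± 0.21) and Htr2a (-0.25 ± 0.15) were not called.

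Drd1a was slightly lower in layer 5 than in WT layer 6, by 0.43 ± 0.09 on the log2 scale (adjusted p = 0.000645), and Drd2 was higher by 2.21 ± 0.29 (adjusted p = 5.73e-06). Drd5, at 0.506 to 0.960 CPM in layer 5 and 0.132 to 0.210 in WT layer 6, was also higher, by 2.24 ± 0.32, and Drd4 had too few counts for this test. Of the adrenergic receptors, the 3 alpha-1 genes were higher in layer 5 and the 2 tested alpha-2 genes lower. Adra1a was at 6.84, 5.86, 5.89 and 5.93 CPM in layer 5 (log2 fold change 2.05 ± 0.14) and Adra1b at 5.64, 4.01, 4.67 and 4.99 (1.58 ± 0.19). Adra2a was at 5.46 to 6.70 CPM (-1.05 ± 0.09) and Adra2c at 5.36 to 5.92 (-0.88 ± 0.10). Adrb1 was not called (0.05 ± 0.10).

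Null layer 6 against WT layer 5 gives the receptor levels of the null relative to the other layer. It shares its libraries with the comparisons above and differs in genotype, layer and batch at once. Of 31 tested receptor genes 8 were higher in the null, 18 lower and 5 not called, where 84.3% of all 15013 genes tested were called, 42.4% higher and 41.8% lower. Levels did not overlap for 24 receptor genes and for 80.2% of all genes. Of the 11 genes called between null and WT layer 6, 3 were not called between null layer 6 and layer 5: Drd2 (log2 fold change 0.34 ± 0.21), Htr4 (0.03 ± 0.14) and Adra1d (0.04 ± 0.27). Each of these had risen in the null from the WT layer 6 level. A p above the threshold does not show that their levels were equal.

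Other genes that changed in the null lay away from the layer 5 level. Against layer 5 the log2 fold change was -2.66 ± 0.10 for Drd1a, -4.55 ± 0.24 for Hrh1, -2.87 ± 0.21 for Adra1b and -1.34 ± 0.30 for Htr1f. For Hrh1 and Adra1b the null stood below WT layer 6 while layer 5 stood above it. Htr7 rose in the null but was still lower than in layer 5 (-1.51 ± 0.10). Adrb1 was higher in the null than in layer 5 by 0.56 ± 0.12, and Adra2c by 0.32 ± 0.10. The receptor genes with higher levels in both layer 6 groups than in layer 5 were Htr1a (0.95 ± 0.09, null against layer 5), Htr2c, Htr3a, Adra2a (1.21 ± 0.08), Adra2c and Chrm5 (1.32 ± 0.26). Drd4 was also higher in the null than in layer 5, at levels under 1 CPM. The calls of Chrm3 and Htr2a in this comparison were lost under 11 of 21 alternatives each, and with paired libraries summed those of Chrm3, Htr2a and Htr5b were lost.

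**Figure D3:**
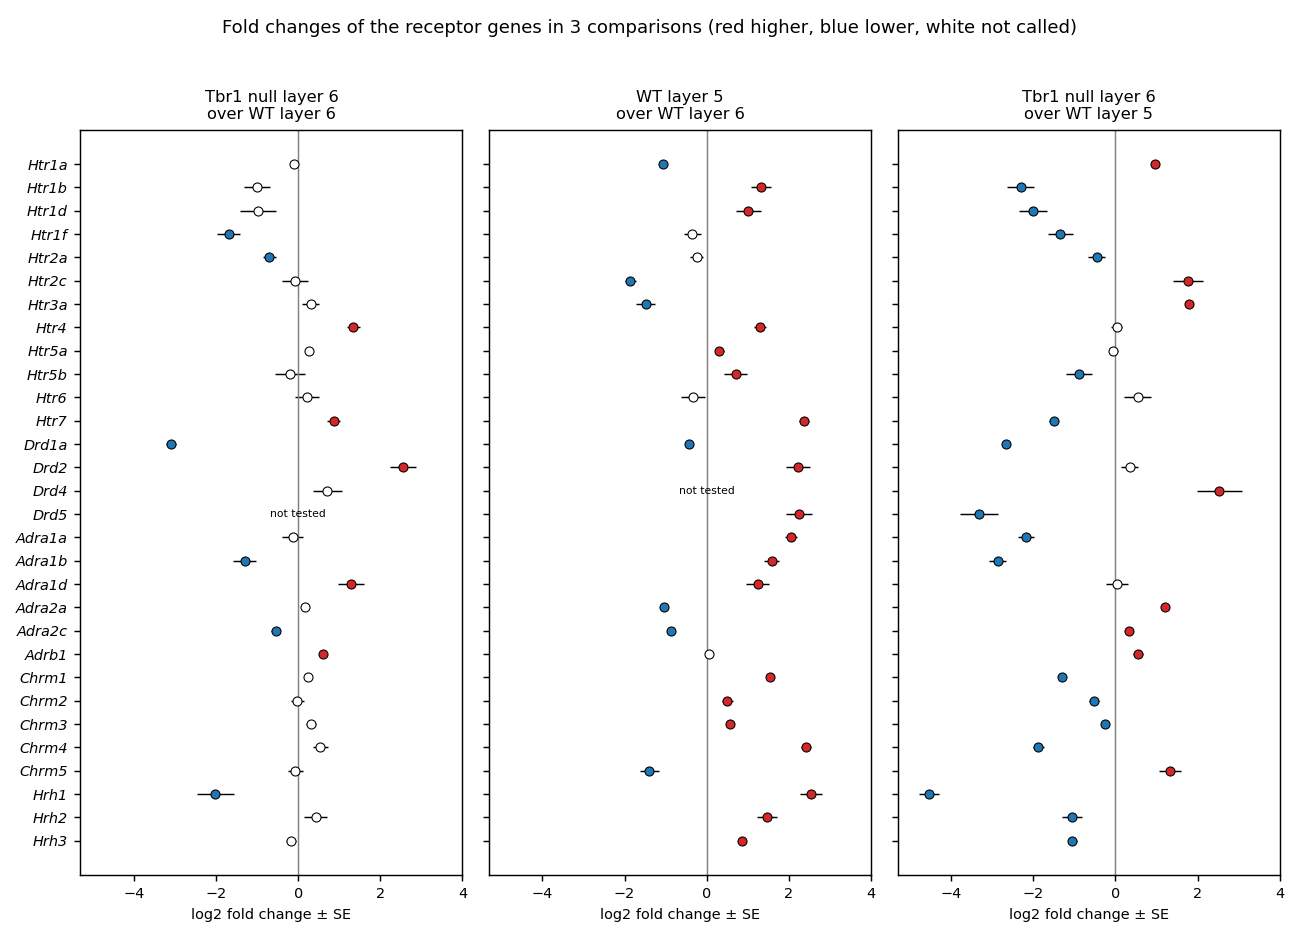
Log2 fold change and its standard error for the tested receptor genes but 1 (rows) in null against WT layer 6, WT layer 5 against WT layer 6, and null layer 6 against WT layer 5. Red points were called higher, blue points lower and white points were not called; Drd1a is at -3.09, -0.43 and -2.66.

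The 6 receptor genes not tested in any comparison had few counts. Summed over 4 libraries, Adra2b had 13 counts in WT layer 6, 7 in null layer 6 and 29 in WT layer 5, and Drd3 had 9, 5 and 11. Adrb3 had 3, 19 and 24 counts, and Htr2b had 5, 4 and 13. Htr3b, the other channel subunit gene, had 4, 0 and 4 counts. Hrh4, the histamine receptor of blood cells, had 0 counts in all 12 libraries, which allows a level of up to 0.00613 CPM when 3 counts are taken as the limit. These limits cover counting error only.

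Genes that make, carry and break down the transmitters, and those that pass on the receptors' signals, were counted from lists. The lists were chosen with earlier results of these data known and were not matched for level to all genes. Between null and WT layer 6, 20 of 98 tested signalling genes rose and 18 fell, where 7.31% of all genes tested rose and 6.86% fell. RNA of the cells that release the transmitters was scarce: the summed markers of monoaminergic and cholinergic neurons came to 6.12 to 7.69 CPM in WT layer 6, to 5.08 to 6.94 in the null and to 11.2 to 13.3 in layer 5. Chat, which makes acetylcholine, had 0 counts in WT layer 6, and the noradrenaline transporter gene Slc6a2 had 0 in null layer 6.

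Among adenylyl cyclases and protein kinase A genes, 7 of 16 fell and 2 rose in the null. Adcy1, a calcium-stimulated cyclase, fell by 0.51 ± 0.029 on the log2 scale (464 against 661 CPM) and Prkar2b, a regulatory subunit of protein kinase A, by 0.55 ± 0.038, while Adcy8 rose by 0.34 ± 0.067. Of the 20 G protein subunit genes, 4 rose and 2 fell. Those that fell were Gnal, the alpha subunit that couples D1 receptors to cyclase in the striatum (110 against 152 CPM, log2 fold change -0.47 ± 0.053), and Gng4 (-0.69 ± 0.069). Caly, which encodes a vesicle protein of neurons, fell by 0.43 ± 0.056. Of 17 receptor kinase, arrestin and regulator genes, 6 rose and 2 fell. Rgs8, a regulator that shortens G protein signals, rose by 1.13 ± 0.066 (43.5 against 19.9 CPM) and Rgs4 by 0.56 ± 0.050.

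In the phospholipase C group 3 of 11 genes rose and 1 fell: Itpr1, a calcium channel of the endoplasmic reticulum, rose by 0.43 ± 0.038, and Prkcb, a protein kinase C, fell by 0.67 ± 0.060. Of 11 phosphodiesterase genes 1 rose (Pde4d, 0.27 ± 0.050) and 3 fell, Pde1c (-0.30 ± 0.071) and Pde10a (-0.18 ± 0.029) among them. Of 15 tested genes for transmitter synthesis, transport and breakdown 3 rose and 1 fell, with Maoa, a monoamine oxidase, at a log2 fold change of 0.20 ± 0.050. Of the 8 tested potassium channel and receptor-associated genes 1 rose (Kcnj3, 0.30 ± 0.057) and 2 fell.

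Between WT layer 5 and WT layer 6, 67 of 100 signalling genes were higher in layer 5 and 28 lower, where 42.2% of all genes tested were higher and 43.4% lower. The G protein-gated potassium channel gene Kcnj6 was at 27.6 CPM in layer 5 and 1.73 in WT layer 6, a log2 fold change of 4.01 ± 0.10. Gng4 (2.66 ± 0.034), Gng7 (2.52 ± 0.041), Gnal (1.96 ± 0.022), Adcy1 (2.30 ± 0.023), Prkcb (2.42 ± 0.053) and Pde7b (2.82 ± 0.097) were also higher. The monoamine transporter gene Slc22a3 (3.39 ± 0.18) and Maob (2.37 ± 0.14), both known from glia, were higher as well. The part of the glial RNA described above in the signalling gene differences was not tested. Gng4, Gnal, Adcy1 and Prkcb, which fell in the null, were lower in the null than in layer 5 as well, with log2 fold changes of -3.36 ± 0.052, -2.44 ± 0.051, -2.82 ± 0.020 and -3.09 ± 0.029. Of 100 signalling genes tested between null layer 6 and layer 5, 24 were higher in the null and 64 lower, where 84.3% of all genes tested were called.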

How the data were processed

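RNA counts of 12 libraries were analysed, 4 per group, grouped by the labels. The deposited table gives, for each gene and library, a count of whole reads. STAR 2.5.2b, HTSeq and the build mm9 are named in the submitters' processing notes. The sources used here do not say which annotation was counted or whether strand was used, so reads of overlapping or antisense genes may not be told apart. Libraries were stranded and ribosome-depleted, per the labels. Another deposited table has whole-number scores of 14567 genes, normalized by unstated steps. It served only to compare signs, on log2(score + 1): signs were the same for 11 of 11 called receptor genes in null against WT layer 6, 25 of 26 in layer 5 against layer 6 and 25 of 26 in null against layer 5 (not Htr5b). The peak lists were not used, since no gene positions in their build were at hand, and 0 table columns were left unmatched.

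Tests on the counts of all 24015 genes used edgeR 4.0.16 under R 4.3.3, with TMM scaling, filterByExpr by group, a quasi-likelihood F-test between the 2 groups, and Benjamini-Hochberg adjustment over all genes tested, with calls at an adjusted p under 0.05. The standard error is the absolute log2 fold change divided by the square root of F. Alternatives used DESeq2 1.42.0, limma 3.58.1 (voom), other scalings and filters, blocks, summed pairs and omitted libraries. On simulated counts for null against WT layer 6, the test recovered 44 of 50 genes changed 1.5-fold, 42 of 49 changed 2-fold, 50 of 50 changed 4-fold and 48 of 48 changed 8-fold, with 13 false calls over 14514 genes. The same step gave 14 false calls over 14823 genes for layer 5 against layer 6 and 11 over 14893 for null against layer 5. The simulated libraries were drawn independently, without pairs, so these false calls do not show the rate where paired libraries share a source. Receptor genes called in at least 1 comparison with a mean of at least 1 CPM in a group were described by library. Of each signalling list, up to 3 called genes per comparison with the largest fold changes, at 5 CPM or more, could be named. The members and lists were chosen with earlier results of these data known. The choroid plexus and caudal interneuron markers and the G protein classes were added after values were seen, as was leaving out library pairs. Prkcc and Calcyon had no row of that name. In a chi-square test of counts over genes, the value per degree of freedom came to 3.21 to 5.05 within WT layer 6 pairs, 8.72 to 10.4 within null pairs and 1.33 to 1.39 within layer 5 pairs, and 10.6 to 19.2, 22.2 to 59.4 and 2.94 to 3.35 between pairs. No 2 libraries agreed within sampling noise, and each was kept as a library. That check cannot tell libraries of a shared source from libraries of separate sources. The values of 1 receptor gene are not reported here, though it is in the counts of genes.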

Additional observations from a re-analysis of the deposited data

Results flagged for a closer look

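In 3 of 75 groups of 4 libraries checked, 1 library stood apart from the others by Dixon's criterion. Chance alone flags about 1 in 20 groups. Adra1a was at 6.84 CPM in replicate 1 of WT layer 5 and at 5.86 to 5.93 in the other libraries of that group. Adra1b was at 0.377 CPM in replicate 2 of null layer 6, below the 0.760 to 0.812 of the others. Htr7 was at 4.03 CPM in replicate 1 of WT layer 6 and at 2.52 to 2.73 in the others.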

How the results depend on the processing

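With paired libraries summed, 2 receptor genes rose and 2 fell between null and WT layer 6, against 5 and 6, and the all-gene count of calls was 479 against 2068. With the library pair as a random block it was 1277 genes. The fit over all 12 libraries gave 7 higher and 7 lower, adding Chrm3, Chrm4 and Htr1b. Leaving out 1 library at a time gave 5 to 6 higher and 6 to 7 lower for null against WT layer 6, 17 to 19 and 7 to 8 for layer 5 against layer 6, and 8 to 9 and 16 to 18 for null against layer 5. Only Htr2c changed direction past the threshold, to 0.51 on the log2 scale without null replicates 3 and 4. The calls of Drd1a, Drd2, Htr1f and Htr4 between null and WT layer 6 held under all 21 alternatives. With the replicate number as a block, 5 rose and 6 fell between null and WT layer 6, with 1526 calls over all genes, and 18 were higher between layers, without Htr5b. Deviations of libraries with the same number had correlations of -0.125 to -0.0683 in null against WT layer 6. Null replicate 1 gave -0.0909 with WT replicate 2 and 0.112 with WT replicate 3. These values carry the split between library pairs within each group, so they cannot show whether the numbers pair the libraries. Depth limits the genes under 1 CPM, where calls rest on few counts per library.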
